A study of Danio rerio with 697 samples.

Results

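Among the single cells sorted as pancreatic beta cells from zebrafish larvae after 48 h of capsaicin (csn), 29 wells carried transcripts known from iridophores and held *ins*, the insulin gene, at a low level. They were selected on measured values. Wells of the 48-h group were kept when at least 200 genes were detected and at most 40% of the gene counts fell on the genes of the 13 mitochondrially encoded proteins, which left 89.9% of them. Of the kept wells, one was taken when *defbl1*, *apodb*, *pnp4a* and *gpnmb* together reached 1% of its gene counts and it held at least 50000 gene counts. The 29 wells were 8.81% of the kept wells of that group and 4.18% of the 693 wells of the whole series that the labels map to a group. The comparison wells are the kept wells of the same group with more than 1000 counts on *ins*, called ins-high wells here, which made up 72.6% of the kept wells. No well met both rules.

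The series profiled larval beta cells by Smart-seq2, which reads full-length cDNA of 1 cell per well and was run here without molecular identifiers. Controls were *Tg(ins:Kaede)* larvae given csn over 48 h between days 3 and 5 after fertilization (dpf). *Tg(ins:TRPV)*;*Tg(ins:Kaede)* larvae received csn over 24 h (4 to 5 dpf) or over 48 h (3 to 5 dpf), and each group was a pool of 20 larvae. Both transgenes are driven by the insulin promoter, the first encoding a csn-gated calcium channel and the second a fluorescent protein, so all 3 groups share the reporter and the csn, and only the csn-sensitive channel and the hours differ. No label ties a well to a larva. The pancreatic region of the larvae was dissected by hand and dissociated, and calcein-stained cells were sorted by their fluorescence into 384-well plates. The 48-h group filled plate 3 and is labelled in 2 sets, whose meaning is not given in the sources used here. The main comparison lies within that plate. Controls filled plate 1 and the 24-h group plate 2, so plate and treatment cannot be told apart in anything said of those groups. Wells of 1 pool are not replicates of a condition, and no test was made: values are given by well, by set and as pooled counts.

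Iridophores are the reflecting pigment cells of fish. They descend from the neural crest, as the black melanophores and yellow xanthophores do, and hold stacks of guanine crystals in membrane-bound platelets. Guanine is a purine, and the cells are known for strong expression of enzymes of purine synthesis, among them purine nucleoside phosphorylase 4a (*pnp4a*). In zebrafish larvae iridophores lie along the body stripes, in the eye and over the internal organs, and the transcription factors Tfec and Alx4 and the receptor tyrosine kinase Ltk are known from work on this lineage.

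Gene counts per well in the 29 wells ran from 223479 to 736827 with a median of 416957, against a median of 447477 in the ins-high wells. The number of detected genes ran from 1033 to 1901, and the mitochondrial share from 5.55% to 38.5%, with medians of 17.5% in the iridophore-like and 12.1% in the ins-high wells. Spike-in RNA made up at most 0.878% of the counts of any of the 29 wells. Their depth lay within that of the ins-high wells, and their median mitochondrial share was higher.

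The labels give beta cells as the cell type of every well, and the name iridophore-like rests on the 4 marker genes, whose values chose the wells and are given as a description. Their summed share ran from 2.68% to 14.9% of gene counts, with a median of 8.39%. *defbl1*, a beta-defensin-like gene on chromosome 21 (21741804 to 21742991 of GRCz11), held 10918 to 128578 counts per 1e+06 gene counts (CPM). *apodb*, an apolipoprotein D gene on chromosome 24, held 3860 to 51683 CPM. Both lay above every ins-high well in all 29 wells. *gpnmb*, which encodes a membrane glycoprotein of pigment organelles, was found in all 29 wells, from 8.95 to 14646 CPM. *pnp4a* ran from 0 to 9894 CPM, and it reached 10 counts in 23 of the 29 wells. The markers thus varied separately: well I24 of set 2 had the highest summed share of all and no count on *pnp4a*.

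Among the kept wells of sufficient depth, the threshold fell into a gap. The lowest share inside it was 2.68%, in well F13 of set 1, and the highest outside it among the kept wells of sufficient depth was 0.947%, in well F23 of set 1, which had 280 counts on *ins*. The next well outside was G16 of set 2 at 0.455%, with 23993 counts on *ins* and 1588 of its marker counts on *defbl1*. Requiring 2% therefore kept the same 29 wells, requiring 0.5% gave 30, and leaving any 1 of the 4 markers out of the sum left 29 wells. The mitochondrial limit mattered more, since 37 wells met the rule without it and 17 met it at a limit of 20%. Some wells left out by that limit or by depth lay within the gap or above it. Most kept wells with under 50000 gene counts lay below it, with an upper quartile of 0.593%. Examples within it are G11 of set 2 at 1.08%, with over 40% mitochondrial counts, and F16 of set 1 at 2.53%, with under 50000 gene counts. Above it lay A8 of set 1 at 4.16%, left out by the mitochondrial limit, and A10 of set 1 at 2.87%, left out by depth. F16 and A10 held *ins* at 66176.5 and 46135 CPM, with spike-ins at 61.6% and 78.2% of their counts.

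**Figure D1:**
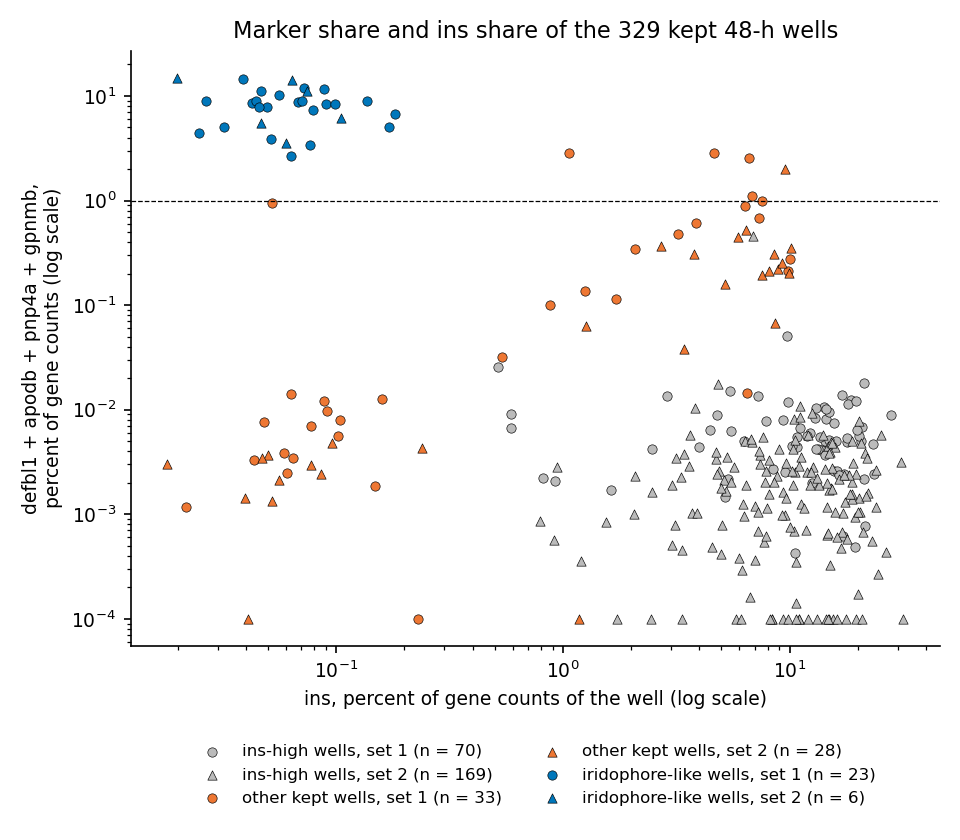
Each point is 1 kept well of the 48-h group, by its share of gene counts on *ins* (x) and on the 4 marker genes summed (y), both in percent on log axes, with shares under 0.0001% drawn at that value and the dashed line at 1%. The 29 iridophore-like wells lie between 2.68% and 14.9% on the marker axis and between 0.0199% and 0.182% on the *ins* axis, apart from the ins-high wells at up to 0.455% of marker counts.

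The 29 wells were unevenly spread over the sets. Set 1 held 23 of them, or 18.3% of its kept wells (95% Clopper-Pearson interval 11.9 to 26.1). Set 2 held 6, or 2.96% (1.09 to 6.32). These intervals cover counting error only. The 6 wells of set 2 lay in plate rows G, H, I and K, and none of the 99 kept wells of rows L to P was among them, a division of the rows made after the values were seen. No kept control well and no kept 24-h well met the rule, which allows shares of up to 1.75% and 2.00%. The highest summed marker share was 0.0197% in any kept control well and 0.422% in any kept 24-h well.

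The iridophore-like wells differed from the ins-high wells in a large share of the genes that could be compared, with genes of pigment cells, of the actin cytoskeleton and of calcium-binding membrane proteins higher, and hormones, islet transcription factors and granule proteins lower. Between the 2 kinds of well, 629 genes had at least 1 count in 50% of the wells of either kind. A gene was counted as higher or lower when the pooled CPM differed 4-fold or more after adding 1 CPM, in the same direction in each set, with at least 1 count in 50% of the wells of the higher kind. By this rule 110 genes were higher (17.5% of those tested) and 21% of those tested were lower, and the median log2 ratio over all 629 was -0.40. Of the higher genes 89 passed 4-fold in both sets, as did 77.3% of the lower genes, and 70 of the higher genes belong to no list used here. The 2 lists differ in how they rest on reads: at least 10 counts in 50% of the wells of the higher kind were found for 62 of the 110 higher genes and for 15.9% of the lower genes. After every well was thinned to 50000 gene counts, 70 genes were higher and 27 lower, and by the medians of the wells in place of pooled counts 160 were higher and 25 lower. Set 1 held 23 of the 29 wells but a minority of the ins-high wells. Pooled ratios therefore also carry differences between the sets, and some lie outside the ratios of both. For *dnajb1b* the pooled log2 ratio was -2.03, against -1.45 in set 1 and -1.66 in set 2. For *ctsla* it was 2.12, against 1.95 and 1.89, so neither gene passed 4-fold in either set. For *hspb1* it was smaller than in each set, at 2.49 against 4.48 and 2.53. Because the wells were chosen on the same counts, all of these ratios are a description of the 29 wells.

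**Figure D2:**
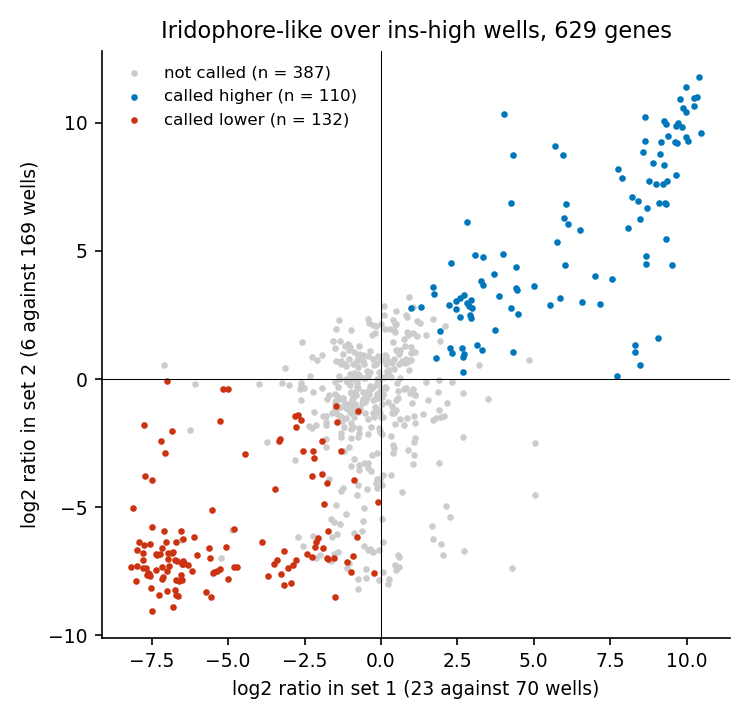
Each point is 1 of the 629 tested genes, by its log2 ratio of pooled CPM (iridophore-like over ins-high wells, 1 CPM added) in set 1 (x; 23 against 70 wells) and in set 2 (y; 6 iridophore-like wells), coloured by the call. The 110 higher genes reach 11.19 with the sets pooled, and the endocrine genes among the lower ones lie between -8.66 and -6.30.

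The genes that go with the iridophore lineage, outside the 4 used to choose the wells, were higher wherever they passed the filter on detection, with 1 exception. The list holds 22 such genes, drawn up with earlier results of these data known and matched to 23 identifiers. Of these, 5 had no count in the 29 wells and 6 reached 10 counts in none of them. Only 10 were tested, of which 9 were higher and none was lower, with a median log2 ratio of 10.24, against 17.5% higher over all tested genes. Most of the 10 met the detection filter through the iridophore-like wells alone, so these values are fixed in part by that filter. Summed, the list made up 2814 to 63400 CPM in the 29 wells, with a median of 38144, against a median of 16.5 CPM in the ins-high wells. In 28 of the 29 wells the sum lay above that of every ins-high well.

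*lypc* (chromosome 15, 39957809 to 39963009), which encodes a small protein of the Ly6 family, was absent from 1 of the 29 wells and otherwise high, with a median of 5510 CPM and a highest value of 13731. The ins-high wells ran from 0 to 21.2 CPM. The groups therefore did not overlap in 28 wells, and the log2 ratio was 10.86 (10.26 in set 1 and 10.98 in set 2). In the 34 kept 48-h wells with under 50000 gene counts the pooled *lypc* level was 19418 CPM, with 97.03% of its counts from 1 well that held 5917 *lypc* counts and 0.137% of marker counts. *uraha*, which encodes a hydroxyisourate hydrolase of purine breakdown, was present in every one of the 29 wells, from 136.7 to 6552 CPM with a median of 3023. Its highest ins-high value was 17.3 CPM, so these groups did not overlap, with a log2 ratio of 10.40. *crip1*, a small LIM-domain protein gene, ran from 140 to 17521 CPM around a median of 8774, and 28 wells lay above the highest ins-high well at 328.4 CPM.

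*aqp1a.1*, which encodes a water channel, reached 10 counts in 24 of the 29 wells and in no ins-high well. Its median was 2249 CPM and its log2 ratio 10.08. In the 27 other kept 48-h wells with at least 50000 gene counts it reached 10 counts in 2 wells and 5367 CPM in 1, so that 1 of the 29 wells lay above them all. *s100v2*, of the calcium-binding S100 family, was split: 23 wells had at least 10 counts, up to 17060 CPM, and the others had few or none. It too reached 10 counts in 3 of those 27 other deep wells, up to 12692 CPM. Against the same 27 wells, all 29 lay above the highest value of *uraha*, 28 above that of *lypc* and 27 above that of *crip1*. *apoda.1*, a second apolipoprotein D gene, was seen at 10 counts or more in 17 wells, with a median of 533 CPM and a highest value of 5705. Near-identical copies can share reads in such families, so the division between *apoda.1* and *apodb* rests on the authors' counting. The genes ENSDARG00000089441 and ENSDARG00000055172, which have clone names alone, belonged to the same list, with log2 ratios of 10.47 and 10.13. *akr1b1*, an aldose reductase gene, was higher overall (log2 ratio 6.01) but reached 10 counts in only 14 wells.

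**Figure D3:**
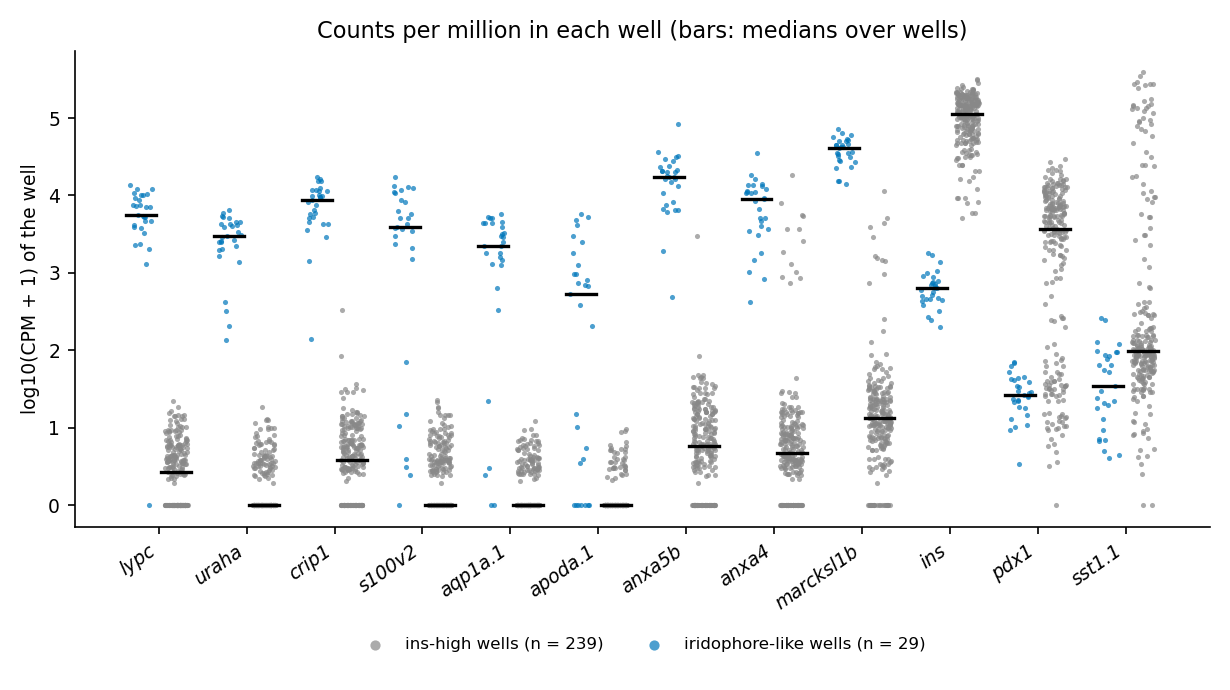
Each point is 1 well, by gene (x) and by log10(CPM + 1) (y), for the 29 iridophore-like wells (blue) and the ins-high wells (grey), with black bars at the medians. *uraha* and *marcksl1b* do not overlap between the kinds of well, *lypc* overlaps in 1 well, and *ins* in the iridophore-like wells (198.6 to 1824 CPM) lies below its lowest ins-high value of 5172 CPM.

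The regulators known from this lineage were present in a minority of the wells and so did not enter the tested genes. These were named after their values were seen. *alx4a* reached 10 counts in 8 of the 29 wells, all its counts in ins-high wells being 4, its highest value was 2338 CPM, and its log2 ratio was 7.98 in set 1 and -0.04 in set 2. *alx4b* reached 10 counts in 7 wells and *alx1* in 6, with highest values of 2771 and 1758 CPM. *tfec* was found in 2 wells only, at up to 1274 CPM, and *ltk* in 1 well at 599 CPM. None of these 5 genes reached 10 counts in any ins-high well. *gpr143*, a receptor of pigment organelles, reached 10 counts in 7 of the 29 wells and in 1 ins-high well. The 29 wells had a median of 489 genes at 10 counts or more, so a low transcript may go unseen in a well at this depth.

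Genes that mark the neural crest were mostly not detected. Of 24 measured, 17 had no count in any of the 29 wells, and 3 reached 10 counts in 4 wells or more: *dlx5a* in 9 wells, *snai1a* in 8 and *sox10* in 4. *dlx5a*, a homeobox gene, reached 2775 CPM and had log2 ratios of 8.09 in set 1 and 8.34 in set 2. *snai1a*, a zinc-finger gene of migrating crest cells, was uneven, since 60.4% of its counts came from 1 well and its log2 ratio was 8.10 in set 1 and -0.90 in set 2. *sox10* likewise drew 62.1% of its counts from 1 well.

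Transcripts of the other pigment cell types were seen in single wells. None of the 14 melanophore genes was tested, 9 of them had no count in the 29 wells, and the summed level ran from 0 to 754 CPM, against 0 to 3204 CPM in the ins-high wells. *mitfa*, *tyr*, *tyrp1b* and *pmela*, which encode the melanophore regulator and parts of melanin synthesis and its organelle, were at 0 in all 29 wells. Of the 13 xanthophore genes 9 had no count, and *csf1ra*, *gch2* and *pax7b* were among them. The summed xanthophore level was 0 to 912 CPM. The exceptions, named after their values were seen, were *dct*, *slc24a5* and *trpm1b* of the melanophore list, at 10 counts or more in 1 well each, and *slc2a15a* and *aox5* of the xanthophore list, in 2 wells and 1 well.

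Purine synthesis was patchy from well to well. Of 30 genes of purine synthesis and salvage only 1 was tested, and it was higher: *guk1a*, which encodes a guanylate kinase, at 10 counts or more in 17 of the 29 wells and in 1 ins-high well, with a log2 ratio of 5.42. *guk1a* met the detection filter through the iridophore-like wells alone. In 1 of the 27 other deep wells *guk1a* reached 5048 CPM, above all 29. The summed level of the 30 genes had a median of 3151 CPM in the 29 wells against 4.70 CPM in the ins-high wells, although only 2 of the 29 lay above the highest ins-high well at 9190 CPM. The next genes were chosen after their values were seen. *atic*, which encodes the enzyme of the last steps to inosine monophosphate, reached 10 counts in 9 wells and up to 4139 CPM, with no ins-high well at 10 counts. *paics*, of a middle step of the same pathway, reached 10 counts in 10 wells and up to 3850 CPM, and *ppat*, of the first committed step, in 6 wells and up to 943 CPM. *hprt1l*, a gene of purine salvage, was seen at 10 counts in 7 wells, and *slc29a1a*, a nucleoside transporter, in 9. *paics* and *ppat* overlap on opposite strands of chromosome 20 (25618114 to 25631256 and 25625872 to 25639508), and reads of the shared stretch cannot be told apart without strand.

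Genes of pigment organelles and lysosomes gave 4 higher and no lower gene among 6 tested of 36, with a median log2 ratio of 2.27. Over all tested genes 17.5% were higher. All 4 met the detection filter through the iridophore-like wells alone, so this count is fixed in part by that filter. *myo5b*, an unconventional myosin that moves vesicles along actin, stood out, at 10 counts or more in 14 of the 29 wells and in no ins-high well, with a log2 ratio of 8.39. The lysosomal proteases *ctsd* and *ctsla* and the proton pump subunit *atp6v0ca* were higher by 2.41, 2.12 and 3.45 on the log2 scale. Their wells overlapped fully or nearly so: the highest *ctsd* value was 8094 CPM in the 29 wells and 11666 CPM in the ins-high wells. *rab38c*, a small GTPase gene of the pigment organelle family, reached 10 counts in 7 wells and *mlpha*, which links such organelles to myosin, in 6, and both were named after their values were seen.

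**Figure D4:**
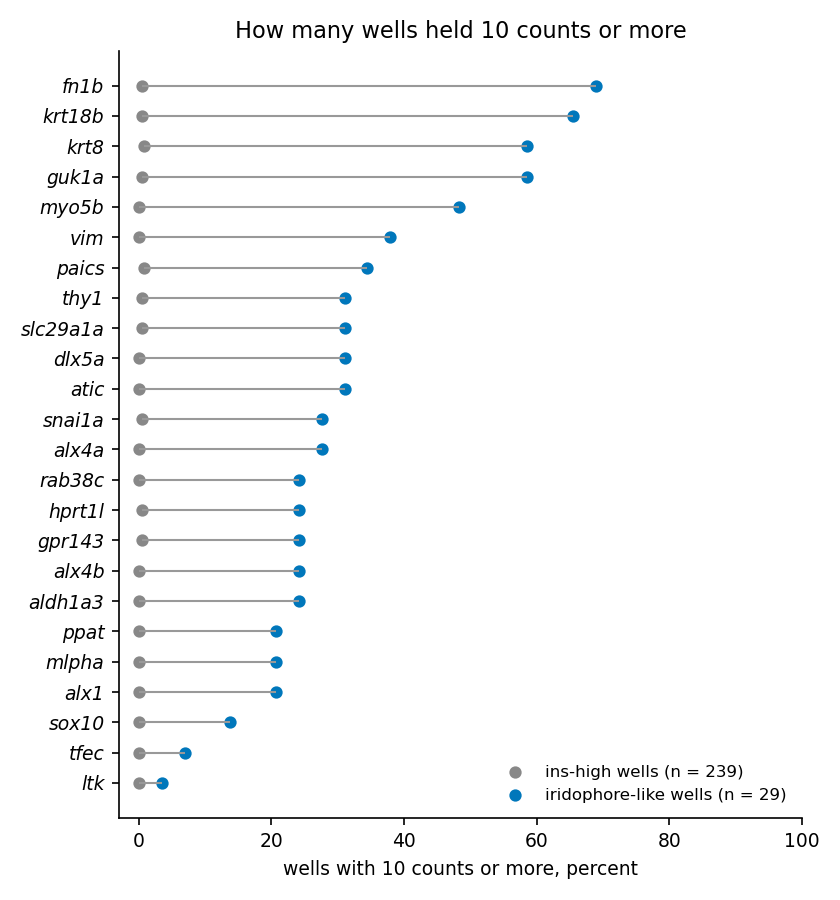
For each gene the points give the percent of wells with 10 counts or more in the 29 iridophore-like wells (blue) and in the ins-high wells (grey). *fn1b* was highest at 20 of 29 wells, *alx4a* was in 8, *tfec* in 2 and *ltk* in 1, while no gene shown reached 10 counts in more than 2 of the ins-high wells.

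Of the lists used, that of actin regulators held the most higher genes. Of 37 such genes, 20 were tested, 13 were higher and none was lower, with a median log2 ratio of 3.62. The share over all tested genes was 17.5% higher. Some of the 13, *tagln2* and *marcksl1a* among them, met the detection filter through the iridophore-like wells alone. This count is therefore fixed in part by that filter. Summed, they made up 29475 to 113043 CPM in the 29 wells, and in 28 wells lay above the highest ins-high value of 34625 CPM. *marcksl1b*, a membrane-bound regulator of actin, was the most abundant of those described, from 13941 to 71050 CPM with a median of 40635, every well above the highest ins-high value of 11413 CPM. Divided by gene length it was the second most abundant nuclear transcript of these wells by its median, at 25397 CPM per kilobase, behind *defbl1* at 58836 and ahead of *apodb* at 18129. Its paralogue *marcksl1a* reached 10 counts in 18 wells, up to 3531 CPM. *tagln2*, a transgelin gene, had a log2 ratio of 7.84 with 16 wells at 10 counts or more. Thymosin beta (*tmsb4x*, 877 to 11313 CPM) and the actin gene *actb2* (11.01 to 12130 CPM), named after their values were seen, were also higher, by 4.46 and 3.32 on the log2 scale, but their wells overlapped with the ins-high wells.

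Annexins, which bind membranes in the presence of calcium, gave 4 higher genes of 4 tested among 17, against 17.5% higher over all tested genes. Of these, *anxa2a* and *anxa11a* met the detection filter through the iridophore-like wells alone, so this count is fixed in part by that filter. *anxa5b* (chromosome 1, 22654875 to 22665098) was present in all 29 wells, from 487 to 83153 CPM with a median of 17306, and 27 wells lay above the highest ins-high value of 2985 CPM. *anxa4* was also in all 29 wells, with a median of 9108 CPM. Yet single ins-high wells reached 18576 CPM of *anxa4*, so only 1 of the 29 lay above them all, and its log2 ratio was 4.26 in set 1 and 6.86 in set 2. *anxa11a* reached 10 counts in 15 wells, with a log2 ratio of 3.59. *anxa2a*, which acts with S100a10 proteins, reached 10 counts in 20 wells and in no ins-high well. *s100a10b* reached 10 counts in 14 wells, with 33.01% of its counts from 1 well.

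Transcripts more often seen in other tissues were part of the same profile. *krt8* and *krt18b*, which encode simple-epithelium keratins, were higher by 6.30 and 8.82 on the log2 scale and reached 10 counts in 17 and 19 of the 29 wells. In the 27 other deep wells *krt8* reached 2555 CPM, above all 29, and *krt18b* reached 1654 CPM, with 10 of the 29 above it. *fn1b*, a fibronectin gene, reached 10 counts in 20 wells, with a median of 875 CPM and a log2 ratio of 9.70. Its highest value in the 27 other deep wells was 2638 CPM, with 7 of the 29 above it. *cd248a*, a stromal surface protein gene, reached 10 counts in 8 wells, and its log2 ratio was 8.30 in set 1 and 1.08 in set 2. Of the lists these genes come from, 7 of the 16 fibroblast and mesenchyme genes and 5 of the 10 ductal genes had no count in the 29 wells, and the summed fibroblast and mesenchyme list lay above every ins-high well in 11 of them. No gene of the exocrine, macrophage, neutrophil, erythrocyte, hepatocyte, epidermis, endothelium, muscle, or neuron and glia lists was tested. The highest summed level of these lists in any of the 29 wells was 2411 CPM for endothelium, where 1 well lay above every ins-high well, 2308 for epidermis, 2067 for neuron and glia, 1441 for muscle, 1172 for hepatocyte, 57.5 for exocrine, 33.6 for erythrocyte, 19.3 for macrophage and 4.47 for neutrophil.

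Other genes at the head of the higher list belong to no list. *pmp22b*, a myelin protein gene, had a median of 1290 CPM and a log2 ratio of 9.83, and *SYNPR*, which encodes a synaptic vesicle protein, had a median of 966 CPM and a log2 ratio of 9.60. *unm_sa821* and ENSDARG00000092240, of no stated role here, were higher by 9.98 and 10.31. *tuba8l3*, a tubulin gene, had a log2 ratio of 9.56, with 42.1% of its counts from 1 well.

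Hormones, transcription factors and granule proteins of islet cells were lower in the iridophore-like wells than in the ins-high wells. *ins* (chromosome 5, 37854685 to 37857696) ran from 198.6 to 1824 CPM in the 29 wells with a median of 631, and from 5172 to 315666 CPM with a median of 111217 in the ins-high wells, which the rule on *ins* chose. The pooled log2 ratio was -7.51 (659 CPM, 95% exact Poisson interval 645 to 673, against 120300, 120235 to 120364). In the 27 other kept wells of the 48-h group with at least 50000 gene counts, which met neither rule, *ins* had a median of 630 CPM. As counts, *ins* lay between 89 and 714 per well in the 29 wells, and between 92 and 934 in the 34 kept wells that held under 50000 gene counts. In CPM, *ins* in the 29 wells thus overlapped with the 27 other deep wells, which ran from 180.5 to 2403 CPM. It lay below all 34 shallow wells, which ran from 5376 to 100802 CPM and overlapped in counts only.

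**Figure D5:**
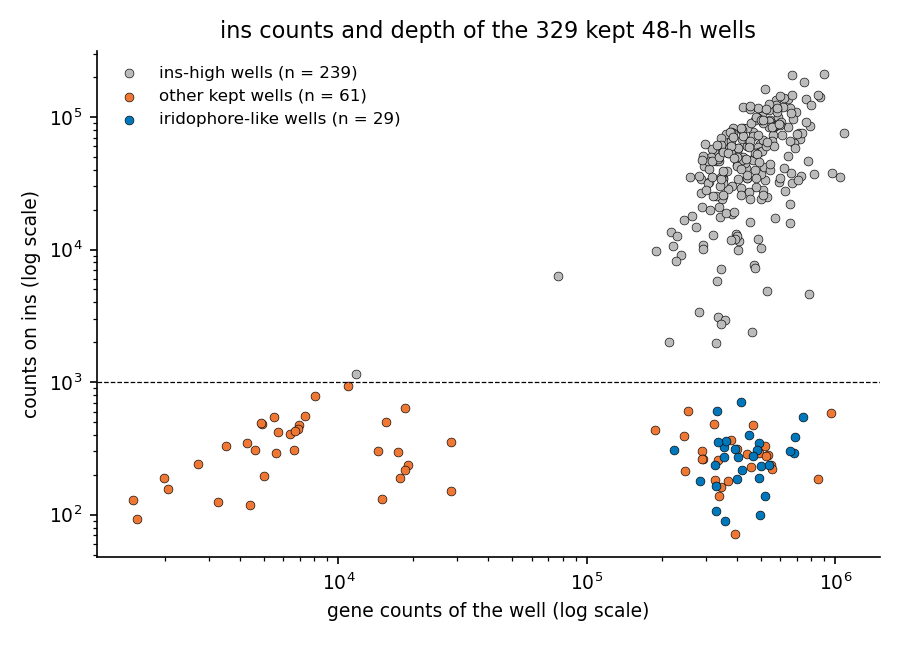
Each point is 1 kept well of the 48-h group, by its gene counts (x) and its counts on *ins* (y), both on log axes, with the dashed line at 1000 counts. The 29 iridophore-like wells (89 to 714 counts) lie at the height of the 61 other kept wells (71 to 934 counts), whose depth runs from 1486 to 960775 gene counts.

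*pdx1*, the transcription factor of beta cell identity, was found in all 29 wells but at 2.37 to 69.6 CPM, against a median of 3727 CPM in the ins-high wells, with a log2 ratio of -7.57. Its median in the 27 other deep wells was 29.9 CPM. Of 24 beta cell transcription factors 5 were tested and all 5 were lower, against 21% of all tested genes. Besides *pdx1* these were *pax6b*, *isl1a*, *neurod1* and *mnx1*, the last named after its value was seen. Of these, *pax6b* and *isl1a* met the detection filter through the ins-high wells alone, so this count is fixed in part by that filter. By the medians of the wells in place of pooled counts, which moves the median log2 ratio of all tested genes to 1.06, *neurod1* stood at 0.13 instead of -6.92. Besides *ins*, whose counts chose the ins-high wells, the glucokinase gene *gck* was the only tested gene of beta cell function. It was lower (-7.20), although against the 27 other deep wells *gck* stood at 0.39. All 5 tested genes of secretory granules were lower, among them *scg3* at -7.73, with 3.86 to 71.9 CPM in the 29 wells. Others were the carboxypeptidase gene *cpe* at -6.99, the chromogranin gene *chga* at -7.04 and the *scg5* gene ENSDARG00000032126 at -7.40. The granule count too is fixed in part by the filter, which *chga* met through the ins-high wells alone. The hormones of other islet cells were lower too, 6 of 6 tested: somatostatin *sst1.1* stood at -8.66, glucagon *gcga* at -7.82 and peptide YY *pyya* at -7.75. A second glucagon gene, *gcgb*, stood at -7.44, but at 0.18 by the medians of the wells and at 1.29 against control wells. These hormones were high in few ins-high wells, since the median of *sst1.1* there was 98.0 CPM and its highest value 388165, so their pooled levels rest on those wells. So do those of some other genes. Medians in the 29 and in the ins-high wells were 2.71 and 4.21 CPM for *cpe* and 0 and 2.21 for *chga*. They were 2.40 and 5.12 CPM for *gck*, 0 and 2.49 for *pax6b* and 0 and 3.16 for *isl1a*. Those of *scg3* (18.6 and 3528 CPM) and of *scg5* ENSDARG00000032126 (2.82 and 338.8 CPM) were far apart. The 27 other deep wells had a pooled *sst1.1* level of 28739 CPM and a median of 100.5 CPM, against a pooled 53.1 CPM in the 29 wells. Pooled levels in the 29 and in those 27 wells were 1.64 and 1.93 CPM for *chga* and 1.48 and 0.35 CPM for *mnx1*. Those of the other tested granule genes and beta cell transcription factors were lower in the 29 wells. Across all 18 of these endocrine genes, *ins* of the selection rule among them, the pooled level in the 29 wells was between 0.243% and 0.754% of that in the ins-high wells, with a median of 0.517%. Their pooled levels in the ins-high wells meanwhile ran from 132.97 CPM for 1 of the *scg5* genes to 120300 CPM for *ins*. Over all genes called lower, these 18 among them, the same percentage had a median of 0.776%. Its quartiles were 0.504% and 14.02%, and its highest value was 24.43%. Values this low were thus not confined to endocrine genes. The endocrine genes nevertheless lay in a narrower band than the lower genes as a whole.

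Other genes among the smallest ratios belong to no list. *scgn* and *calb1*, which encode the calcium-binding proteins secretagogin and calbindin, stood at -7.74 and -7.60. The tetraspanin gene *tspan18a* stood at -7.78, *gchfr*, a regulator of GTP cyclohydrolase, at -7.70, *zgc:101731* at -7.66, the LIM-domain gene *lmo4b* at -7.61 and the amino acid transporter gene *slc1a4* at -7.50. None of these 7 genes reached 10 counts in more than 1 of the 29 wells, and their medians in the ins-high wells were at most 10.64 CPM, so the pooled levels there rest on the wells in which they were high.

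The marker genes were in turn seen at low counts in ins-high wells. *defbl1* had at least 10 counts in 37.7% of them, with a median of 14.4 CPM, and *apodb* in 9.21%, with a median of 5.99 CPM. In ins-high wells of the controls the pooled levels were 9.45 CPM for *defbl1* and 3.31 CPM for *apodb*. The cause of these low counts was not tested.

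A MAF-family gene on chromosome 18 (29402623 to 29413756, ENSDARG00000015890) of the beta cell transcription factor list was not tested. Its pooled level was 0.18 CPM in the ins-high wells and 0.10 CPM in those of the controls, so it was hardly seen in such cells. It reached 10 counts in 11 of the 29 wells and in no ins-high well, with a highest value of 3142 CPM. The name table used here calls it *MAF* and the study's table *mafa*, and a second gene, ENSDARG00000044155, carries the symbol *mafa* as well, so it is given by its identifier.

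*aldh1a3*, a retinaldehyde dehydrogenase gene that in mouse marks dedifferentiating beta cells, was found in some of these wells. It reached 10 counts in 7 of the 29 wells, up to 3993 CPM, and in no ins-high well. In those 7 wells *defbl1* stood at 16004 to 95160 CPM and *lypc* at 2324 to 13731 CPM, *ins* at 321.2 to 1050 CPM and *pdx1* at 3 to 21 counts. All 7 also had at least 10 counts of each of the 4 markers, by which the 29 wells were chosen. For *defbl1* and *apodb* this held in all 29 wells, for *gpnmb* in 24 and for *pnp4a* in 23, so it does not set the 7 wells apart. Of the *aldh1a3* counts in the 29 wells, 46.4% came from 1 well. *aldh1a3* was the only one of 20 dedifferentiation and progenitor genes to reach 10 counts in 3 or more of the 29 wells.

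*coq5*, which encodes an enzyme of ubiquinone synthesis, was at 10 counts or more in 83.3% of the ins-high wells and in none of the 29, with a log2 ratio of -6.19. Against the 27 other deep wells the log2 ratio of *coq5* was 0.017, an alternative chosen after the data were seen. *ndufa4l2a*, a respiratory chain subunit-like gene, had a log2 ratio of -7.48, whereas *ndufa4a* was not tested and differed by -0.48 on the log2 scale. *ndufa4b* and *ndufa4l2b* had no count in the 29 wells and were not tested.

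Few genes of the ribosomal, respiratory chain and proteasome lists were past the fold, against 17.5% higher and 21% lower over all tested genes. Of 79 tested ribosomal protein genes 1 was lower, *RPS26* (ENSDARG00000037071), and none was higher, with a median log2 ratio of -0.47 against -0.40 over all genes. With no limit on mitochondrial counts *RPS26* stood at 0.81, which ends that call. Nuclear respiratory chain subunits gave 1 higher and 4 lower of 43, with a median of -0.50. Among the lower ones were *ndufs3* at -3.18, the cytochrome c gene *cycsb* at -2.43 and the ATP synthase gene *atp5pb* at -2.36. By the medians of the wells *ndufs3* stood at 0.081. Medians in the 29 and in the ins-high wells were 7.01 and 7.55 CPM for *cycsb* and 4.47 and 4.56 CPM for *atp5pb*. The typical wells thus differed little in these genes. In the endoplasmic reticulum list 3 of 8 tested genes were lower and none was higher. These were the chaperone genes *calr* at -4.99 and *hsp90b1* at -2.60, and *xbp1*, a transcription factor of the unfolded protein response, at -2.29. By the medians of the wells *xbp1* stood at 0.035. Medians in the 29 and in the ins-high wells were 1.463 and 1.596 CPM for *calr* and 2.752 and 2.755 CPM for *hsp90b1*. Pooled levels of these genes in the ins-high wells thus rest on the wells in which they were high. The peroxiredoxin gene *prdx4* at -5.71 was the lower one of 5 antioxidant genes tested, and *nr4a1*, an orphan nuclear receptor gene, at -7.04 that of 6 immediate early genes. Both had a median of 0 CPM in the 29 wells, against 1.499 CPM for *prdx4* and 2.105 CPM for *nr4a1* in the ins-high wells. In the 27 other deep wells *calr* stood at a pooled 2665 CPM and *nr4a1* at 378.1 CPM. No proteasome subunit was past the fold among 10 tested. Of 17 heat shock genes tested 1 was higher and 3 were lower, with a median of -1.39. *hspb1*, a small heat shock protein gene, was the higher one (log2 ratio 2.49), while the ubiquitin gene *UBB* and the co-chaperones *dnajb1b* and *bag3* were lower, at -2.45, -2.03 and -7.01. Medians of *bag3* were 2.79 CPM in the 29 wells and 4.33 CPM in the ins-high wells. Against the 27 other deep wells *hspb1* stood at -0.42. The shares of lower genes in the antioxidant, immediate early and heat shock lists were no larger than the 21% over all tested genes. These counts therefore show nothing particular to those lists. No cell cycle gene was tested.

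Within the mitochondrial chromosome the genes differed in their ratios. Of 13 protein-coding genes 12 were tested, 2 were higher and none was lower, and their median log2 ratio was 0.93. That share of higher genes was no larger than the 17.5% over all tested genes. *mt-atp6* had a median of 11909 CPM in the 29 wells and of 563 CPM in the ins-high wells, a log2 ratio of 2.66, and *mt-atp8*, whose coordinates (8894 to 9058) overlap those of *mt-atp6* (9052 to 9735), one of 2.26. *MT-CO3*, which follows them directly (9735 to 10520), went the other way, with medians of 4246 and 12125 CPM and a log2 ratio of -0.97. *MT-CO1* was near even at 0.17. Both *MT-CO* genes were named after their values were seen, and the part of the mitochondrial share of the wells in these differences was not tested.

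The 29 wells differed in which of the higher genes they held. Of the 110 higher genes 8 reached 10 counts in all 29 wells, 6 of them outside the genes that chose the wells: *marcksl1b*, *anxa5b*, *crip1*, *anxa4*, *uraha* and *tmsb4x*. Among genes at 10 counts or more in 25% to 75% of the wells, those with a wide spread on the log2 scale included ENSDARG00000055172, *s100a10b*, *akr1b1*, *uchl1*, *map1lc3c*, *vamp5*, *plscr3b*, *thy1* and *si:ch211-81a5.8*. *uchl1*, a ubiquitin hydrolase gene, ran from 0 to 4503 CPM around a median of 372. *thy1*, a surface glycoprotein gene, ran from 0 to 7679 CPM and reached 10 counts in 9 wells. Over 467 genes at 10 counts in 25% of either kind of well, the Pearson correlation of log2(CPM + 1) between 2 iridophore-like wells had a median of 0.35 over 406 pairs. Between an iridophore-like and an ins-high well it was 0.23, and between 2 ins-high wells 0.51. The genes were chosen from these wells, and the pairs share wells and plate. Among the 4 markers, *defbl1* and *apodb* had a Spearman correlation of 0.22 over the 29 wells and *pnp4a* and *gpnmb* one of -0.06, both weak, in sparse counts of wells that share a plate.

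Leading genes were seen in the wells of both sets. The median of *lypc* was 5510 CPM in the 23 wells of set 1 and 6329 CPM in the 6 of set 2, and that of *marcksl1b* 42712 and 35750 CPM. Among the higher and lower genes the medians differed most, with set 1 above set 2, for *arl6ip5b* (990 and 1.00 CPM), *krt18b* (697 and 0), *ssuh2rs1* (719 and 0), *s100a10b* (237.7 and 0) and *pmp22b* (1764 and 12.9). In the other direction stood *rcl1* (2.04 and 912), *si:ch211-81a5.8* (7.01 and 1257), *krt8* (46.9 and 1408), *CABZ01080568.1* (17.5 and 612) and ENSDARG00000095921 (2.75 and 133.8). In set 2 these medians rest on 6 wells. The mitochondrial share was 16.9% in set 1 and 25.9% in set 2 at the median, and its part in these differences was not tested.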

How the data were processed

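Single-cell Smart-seq2 libraries of larval zebrafish islet cells were read as counts per gene. The deposited table holds whole-number counts of reads per gene, made by the authors with bcl2fastq 2.19.1, GSNAP 2019-06-10 and featureCounts 2.0.1 on GRCz11 with an Ensembl annotation, per the submitters' processing notes and the study's methods. It covers 32520 genes and 92 spike-ins, and the gene length in bases of the deposited table was used where levels were compared between genes. No molecular identifiers were used, so reads are not independent molecules, and the intervals (95%, Clopper-Pearson for shares of wells, exact Poisson for pooled counts) and the limit set by a count of 0 (3 counts) cover counting error only. Of the columns, 693 wells matched a labelled group, and 4 did not and were not used. The 48-h group held 366 wells (143 in set 1 and 223 in set 2), of which 329 were kept (126 and 203). Of these 239 were ins-high (70 and 169). The control and 24-h groups held 173 and 154 wells, of which 171 and 150 were kept. Of 629 tested genes 110 were higher and 132 lower. Names were given to 29210 genes, 3208 of them by chromosome and 502 from the study's table.

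Counts were divided by the gene counts of the well, spike-ins left out, times 1e+06 (CPM). Wells were pooled by summing counts, and log2 ratios were taken after adding 1 CPM, which understates the change of low genes. Each group was 1 pool of larvae on 1 plate and the wells were chosen on the same counts, so no test was run. The members and the 37 gene lists were chosen with earlier results of these data known. Genes named in the text are the 4 of the rule, *ins*, *pdx1*, *aldh1a3*, *coq5* and *ndufa4* genes, the 20 largest and 15 smallest ratios past the fold, up to 4 members of each list past the fold, regulators, pigment and dedifferentiation genes with 10 counts in 25% of the wells, and the genes that varied most between wells or sets. Those named outside this rule are said to be so or are given as members at 0. A gene that the rule names is not reported here. Thresholds, scaling, depth, sets and comparison wells were varied. Scripts were tested on simulated data. Python 3.11.15, numpy 2.4.6, pandas 2.3.3 and scipy 1.17.1 were used.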

Additional observations from a re-analysis of the deposited data

Results flagged for a closer look

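Marker transcripts of the iridophore-like wells also appeared in wells that the comparisons did not use. The highest summed share of *defbl1*, *apodb*, *pnp4a* and *gpnmb* was 2.874% of gene counts among kept 48-h wells with under 50000 gene counts, where 5 wells passed 1%. In any kept control well it was at most 0.0197%. That comparison is at unlike depth, since the 5 wells held 1986 to 17705 gene counts and the shallowest kept control well 171420. Among 48-h wells with over 40% mitochondrial counts the highest share was 4.164%, and 8 such wells passed 1% with at least 50000 gene counts. In 2 of those 8, E24 and A18 of set 1, nearly all marker counts lay on *defbl1* (19944 and 5526 counts, against 12 and 5 on *apodb*). Among kept 24-h wells the highest share was 0.4219%, in a well with 1066 counts on *defbl1*, none on *apodb* and 8448 on *ins*. The plate and the treatment cannot be told apart in the last value.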

How the results depend on the processing

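The 29 wells stayed within 1.5 times under 12 of 14 alternatives, with 17 wells at a limit of 20% mitochondrial counts and 6 without set 1 as the exceptions. The count of higher genes stayed within 1.5 times under 24 of 29 alternatives and that of lower genes under 22. As multiples of the counts in the report, the exceptions were 1.53 for higher genes without set 1, where 6 wells remained, 0.189 for lower genes by the medians of the wells, 0.636 for higher and 0.205 for lower genes after thinning to 50000 gene counts, 1.52 for lower genes at a fold of 2, 2.06 and 2.61 with 1 count in 25% of wells, 0.564 and 0.159 with 10 counts in 50% of wells, and 5.12 and 27.6 with no limit on detection. Against the other kept 48-h wells with 50000 gene counts or more, chosen after seeing the data, the multiple for lower genes was 0.583 (77 genes). The median log2 ratio of all tested genes was 1.06 by the medians of the wells, 0.0052 after thinning, -0.71 with no mitochondrial limit, -0.29 with mitochondrial genes left out of the total and 0.31 against those other wells. Of 1932 values over 84 named genes, 1475 moved by less than the SD between the 2 sets and 448 by more. The 1475 include the values of the alternatives that selected the same wells. Another 9 values changed sign, in 8 genes. *RPS26* (ENSDARG00000037071) stood at 0.81 with no mitochondrial limit. By the medians of the wells *ndufs3* stood at 0.081, *xbp1* at 0.035, *neurod1* at 0.13 and *gcgb* at 0.18, and against control wells *gcgb* at 1.29. Against the other deep 48-h wells *hspb1* stood at -0.42, *coq5* at 0.017 and *gck* at 0.39. The cause of these moves was not tested. No paired analysis was possible because the groups are single pools with no shared replicate numbers and no test was run. Of the lower genes 38.6% had no iridophore-like well with 10 counts, and a low level and limited depth were not told apart there.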
